A study of Homo sapiens with 12 samples.

Results

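NONO is a nuclear RNA-binding protein, and its contacts with RNA in vehicle-treated 22Rv1 cells are described here from 2 deposited peak lists. 22Rv1 is an established human prostate cancer cell line. The labels name no genetic change in these cells, which had been exposed to 0.04% DMSO, the solvent of the study's compounds, for 4 h, after 40 h of growth in 2 to 3 plates per condition. RNA and protein were crosslinked with 400 mJ of UV light, NONO was immunoprecipitated, and the bound RNA was sequenced by eCLIP beside an input library of each replicate. An eCLIP peak is a stretch of RNA with more reads in the immunoprecipitate than in that input. All peaks of both lists were taken, 669 in replicate 1 and 3678 in replicate 2, which made 4347 of the 26351 peaks in the 6 lists of the series, or 16.5%. The lists came from 4 of its 12 libraries. The labels do not say whether the replicates were separate cultures, and no compound-treated list entered any result below.

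NONO belongs to the DBHS family of proteins, with SFPQ and PSPC1, which pair with each other and bind RNA and DNA. It is a core protein of paraspeckles, nuclear bodies that form on the long noncoding RNA NEAT1, and it takes part in transcription, splicing, the nuclear retention of edited RNA and the processing of primary microRNAs. An RNA-binding protein that acts on nascent transcripts contacts mostly introns, since introns make up most of the sequence that is transcribed and are removed before export.

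The 2 lists differed in length by 5.50 times, and this difference touches every count below. The lists hold no read counts, so the depth of the libraries is unknown, and whether depth set the difference was not tested. The deposited log2 enrichment over input had a median of 3.72 in replicate 1 (3.00 to 5.69) and of 3.59 in replicate 2 (3.00 to 7.85), so that the weakest peak of either list stood 8.0-fold above its input. The deposited −log10 p had a median of 4.67 and a maximum of 32.0 in replicate 1, and a median of 5.60 and a maximum of 84.7 in replicate 2. Peaks were 67 nt wide at the median in replicate 1 and 73 nt in replicate 2, and covered 47.9 and 279.7 kb.

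A site was called shared when peaks of both lists overlapped by at least 1 nt on the same strand. There were 192 such sites. A sequence was read for 13 of them, and 11 of these touch no annotated UTR. Each of the 13 lies whole in an annotated exon of a GENCODE 29 transcript or in a RefSeq window around an annotated start (GRCh38.p14). The 13 may not be all the shared sites that meet this rule. The sites below come from the 11 without an annotated UTR. All 10 are GRCh38, 5′ to 3′ on the transcribed strand, and capitals mark the bases covered by a peak in both lists.
DRD4, coding sequence, chr11:637312-637447, plus strand: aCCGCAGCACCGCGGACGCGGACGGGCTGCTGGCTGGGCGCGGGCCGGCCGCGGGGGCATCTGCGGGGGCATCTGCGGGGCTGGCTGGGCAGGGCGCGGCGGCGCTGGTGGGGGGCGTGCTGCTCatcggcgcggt
RP13-25N22.1, noncoding exon, chr11:1573263-1573361, plus strand: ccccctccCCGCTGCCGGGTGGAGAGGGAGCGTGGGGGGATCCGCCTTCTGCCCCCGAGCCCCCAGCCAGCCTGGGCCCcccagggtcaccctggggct
DLEU2, noncoding exon, chr13:50125395-50125485, minus strand: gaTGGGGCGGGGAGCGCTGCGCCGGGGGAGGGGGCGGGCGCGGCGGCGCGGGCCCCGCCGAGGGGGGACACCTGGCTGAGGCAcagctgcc
CAPN15, intron, chr16:537389-537497, plus strand: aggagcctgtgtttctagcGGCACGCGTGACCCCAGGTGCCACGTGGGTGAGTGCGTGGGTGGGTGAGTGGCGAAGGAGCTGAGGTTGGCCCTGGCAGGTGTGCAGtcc
YWHAE, intron, chr17:1399496-1399699, minus strand: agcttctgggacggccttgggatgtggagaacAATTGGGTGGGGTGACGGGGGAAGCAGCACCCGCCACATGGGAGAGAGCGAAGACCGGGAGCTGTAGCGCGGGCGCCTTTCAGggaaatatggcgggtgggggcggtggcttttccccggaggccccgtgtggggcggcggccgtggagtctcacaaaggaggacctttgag
ADARB1, intron, chr21:45074875-45074941, plus strand: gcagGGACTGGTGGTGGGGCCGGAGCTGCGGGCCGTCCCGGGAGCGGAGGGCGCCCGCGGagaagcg
PHF21B, intron, chr22:45008450-45008534, minus strand: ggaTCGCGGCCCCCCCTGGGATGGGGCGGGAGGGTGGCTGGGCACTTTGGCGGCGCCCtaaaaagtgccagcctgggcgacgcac
E2F3, intron, chr6:20403406-20403523, plus strand: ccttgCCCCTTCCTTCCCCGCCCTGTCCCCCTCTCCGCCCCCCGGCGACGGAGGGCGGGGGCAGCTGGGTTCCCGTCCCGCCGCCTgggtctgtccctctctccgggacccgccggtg
GLTSCR1L, intron, chr6:42783410-42783489, plus strand: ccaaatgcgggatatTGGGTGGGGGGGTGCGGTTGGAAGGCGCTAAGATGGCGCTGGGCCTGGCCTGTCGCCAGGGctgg
MIRLET7BHG, noncoding intron, chr22:46071578-46071680, plus strand: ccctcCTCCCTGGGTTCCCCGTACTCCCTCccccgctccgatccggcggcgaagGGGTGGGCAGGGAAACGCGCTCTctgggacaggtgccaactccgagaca

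The eleventh, in ALPK3, is not shown because its peaks share only 1 nt. Among the 11 sites the GC content ran from 65.7 to 84.6%, and G made up 29.7 to 54.9% of the bases. G was the most frequent base in 8 of them, GGGG stood in 10 and AGGGA in 5. A pattern of 4 runs of at least 3 G, each 1 to 7 nt apart, stood in 4. Runs of G that recur through most of a site, as in DLEU2, ADARB1 and GLTSCR1L, were not the only form. The sites in RP13-25N22.1, E2F3 and MIRLET7BHG have more C than G, with G at 35.4, 29.7 and 30.1%.

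The same property was measured over all peaks that lie whole in an annotated exon, 67 peaks of replicate 1 (10.0% of the list) and 259 of replicate 2 (7.04%). Their median GC content was 78.8% in replicate 1 and 72.4% in replicate 2. Windows of 68 or 69 nt tiled over the same exons, 815 and 2907 of them, had medians of 60.3 and 59.4%. On the transcribed strand GGGG occurred in 65.7% of the peaks of replicate 1 and 65.6% of those of replicate 2, against 43.7 and 40.6% of the windows. AGGGA, whose run of G is too short to be counted as a GGGG as well, occurred in 19.4 and 12.4% of peaks and in 10.7 and 10.6% of windows. The 4-run pattern occurred in 23.9 and 14.7% of peaks and in 4.66 and 3.16% of windows. TTTTT went the other way, with 0 and 1.54% of peaks against 9.45 and 9.53% of windows. The peaks read in this way were thus richer in G and C than windows of the same exons in both lists. Of them, 14 in replicate 1 and 71 in replicate 2 are intronic by the authors' class, although they lie whole in an exon of some GENCODE 29 transcript. The surroundings of start sites are GC-rich as well. Windows of 69 nt in the RefSeq start regions of 135 genes with a peak in both lists had a median GC of 68.1%, and those of all 27305 RefSeq genes 58.0%. GGGG stood in 49.6% of the former and 33.9% of the latter, and the 4-run pattern in 7.68 and 3.27%. The part that closeness to a start site has in the GC content of the peaks was not tested, and the sequences of most intronic peaks are not analysed here.

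NONO peaks lay mainly in introns. By the authors' classes, introns held 585 of 669 peaks in replicate 1 (87.4%, 95% Wilson interval 84.7 to 89.7) and 3356 of 3678 in replicate 2 (91.2%, 90.3 to 92.1), a mean of 89.3% ± 2.69 (SD, n = 2). These intervals cover counting error only, and neighbouring peaks are not independent. Introns of coding genes more than 500 nt from an exon were the fullest class in both lists, with 36.5% in replicate 1 and 60.0% in replicate 2. Coding-gene introns within 500 nt of an exon came next with 30.9 and 20.7%. The intervals of the lists do not overlap for either class. As neighbouring peaks are not independent, this does not establish that the balance of deep against exon-near introns differed between replicates. Introns of noncoding transcripts held 20.0% (17.2 to 23.2) in replicate 1 and 10.5% (9.57 to 11.6) in replicate 2, again without overlap of the intervals. When replicate 2 was reduced to its 669 peaks of highest −log10 p, its noncoding intron share no longer lay below that of replicate 1. Its share in introns within 500 nt of an exon, coding and noncoding, then moved toward that of replicate 1.

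Peaks in exons were few. The 5′ UTR held 54 peaks in replicate 1 (8.07%, 6.24 to 10.4) and 184 in replicate 2 (5.0%, 4.34 to 5.76), and coding sequence 15 and 39. The 3′ UTR, the part of an mRNA where many cytoplasmic regulators bind, held 2 and 19 peaks. Noncoding exons held 12 and 65 and miRNAs 1 and 7, and 8 peaks of replicate 2 were classed as intergenic. In both lists 5′ UTR peaks outnumbered 3′ UTR peaks.

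**Figure D1:**
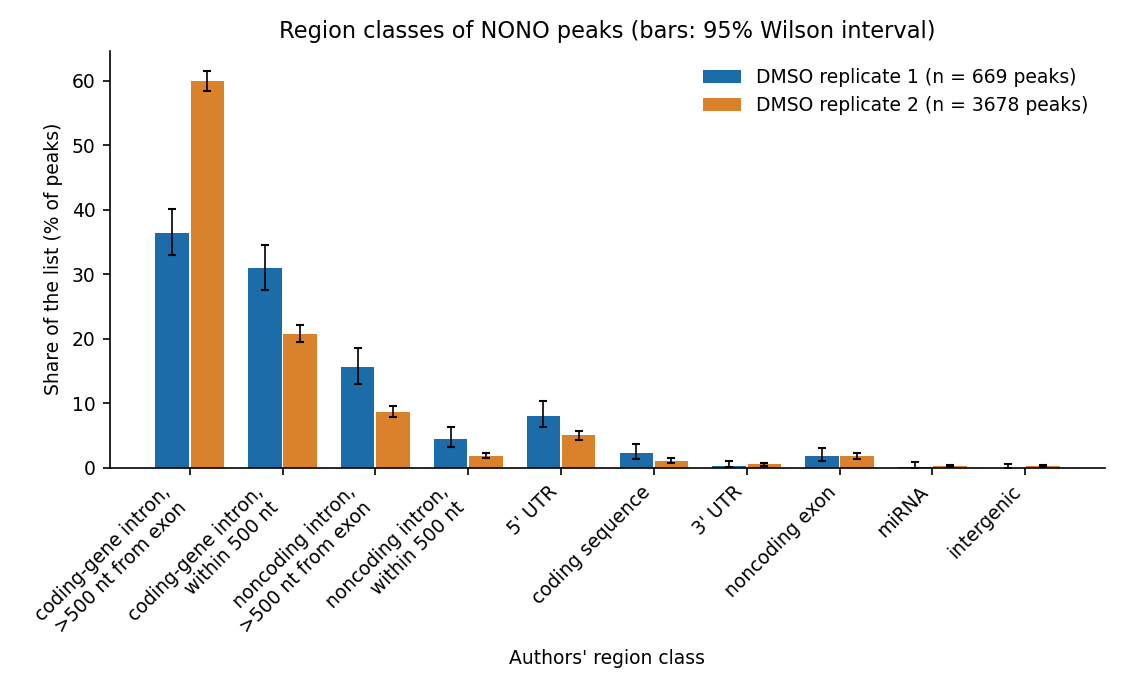
Share of each list in the authors' 10 region classes (vertical axis, percent of peaks; bars are the 2 replicates, error bars 95% Wilson intervals). Introns of coding genes far from an exon held 36.5% of peaks in replicate 1 and 60.0% in replicate 2, and the 3′ UTR under 1% in both.

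Within their genes the intronic peaks gathered near the start. Set on a scale from 0 at the annotated gene start to 1 at its end, the median position was 0.086 in replicate 1 (n = 578 intronic peaks that could be placed) and 0.216 in replicate 2 (n = 3298). Positions below 0.1 held 51.4 and 35.0% of them, and positions above 0.5 held 15.7 and 22.9%. In distance, 48.6% of peaks in replicate 1 and 29.7% in replicate 2 lay within 1 kb of an annotated transcript start, and 66.6 and 53.4% within 5 kb. Replicate 1 was closer to the starts by each of these measures. When each gene counted once, at the median of its peaks, the medians were 0.052 and 0.134. When replicate 2 was reduced to its 669 peaks of highest −log10 p, its median position was 0.102. Intronic peaks in shared sites had a median of 0.067 in replicate 1 and 0.067 in replicate 2.

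**Figure D2:**
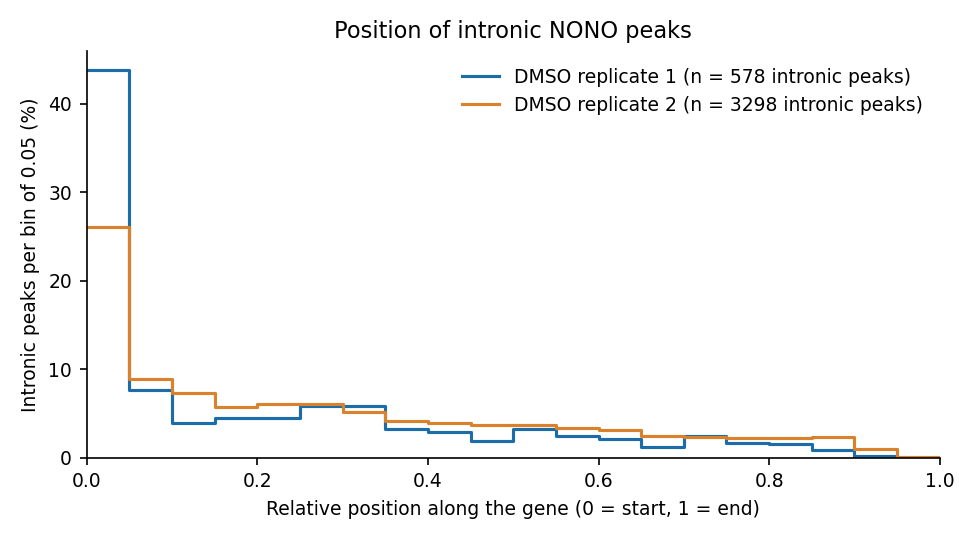
Position of intronic peaks along their gene (horizontal axis, 0 at the start and 1 at the end; vertical axis, percent of intronic peaks per bin of 0.05; 1 line per replicate). The first bin held 43.8% of intronic peaks in replicate 1 and 26.1% in replicate 2, and no other bin reached 10%.

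The first intron held most of these peaks. In the longest annotated transcript that contains the peak, 71.6% of intronic peaks of replicate 1 (67.8 to 75.1) and 63.4% of replicate 2 (61.7 to 65.0) lay in intron 1. First introns are long, and made up 46.5 and 43.0% of the intron length of those transcripts, averaged over the peaks. If each intron counted once, intron 1 would be 17.3 and 17.1% of them. The share of peaks in intron 1 was above its share of length in both lists. In shared sites it was 74.4% (68.0 to 79.9) of the peaks of replicate 1 and 76.3% (70.4 to 81.3) of those of replicate 2.

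Close to exons, peaks lay downstream of the exon and not upstream of it. Within 500 nt of a splice site of that transcript, replicate 1 had 149 peaks on the side of the 5′ splice site, where the intron begins, and 10 on the side of the 3′ splice site, so that 93.7% (88.8 to 96.5) were at the beginning of the intron. Replicate 2 had 430 and 46, or 90.3% (87.3 to 92.7). Beyond intron 1 the counts were 10 against 7 in replicate 1 and 50 against 29 in replicate 2. The lopsided counts near splice sites were thus mostly those of first introns.

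Peaks also came in groups along the RNA. Another peak of the same list lay within 200 nt for 53.2% of peaks in replicate 1 and 54.3% in replicate 2, and 24.2 and 26.2% abutted a neighbour with no gap. Joining peaks within 50 nt gave 533 clusters in replicate 1 and 2810 in replicate 2, of which 25 and 170 held 3 or more peaks. The fullest clusters of replicate 1 held 6 peaks each, 357 nt long in NCOA2, a coactivator of nuclear receptors, and 325 nt long in XPO1, the receptor for nuclear export of proteins. In replicate 2 the fullest held 13 peaks over 579 nt near the start of NFIX, which encodes a DNA-binding factor of the nuclear factor I family, followed by 11 peaks over 881 nt in LZTS2 and 11 over 521 nt in MIRLET7BHG. A long contact zone can be cut into several peaks, so counts of peaks per gene are not counts of separate binding events.

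Peaks fell in 236 genes in replicate 1 and in 809 in replicate 2. Of these, 188 had a peak in both lists, which is 79.7% of the genes of replicate 1 and 23.2% of those of replicate 2. They were 162 protein-coding genes, 23 noncoding genes and 3 joint names of overlapping genes. Across all 19951 protein-coding genes of GENCODE 29, 0.812% had a peak in both lists. The genes with a peak in both lists held 88.6% of the peaks of replicate 1 and 49.3% of those of replicate 2. Binding was unevenly spread: 37 genes held 50% of the peaks of replicate 1 and 72 genes did so in replicate 2, while 113 and 371 genes had a single peak. The protein-coding genes with a peak in both lists were long, with a median of 77.0 kb against 27.1 kb for all protein-coding genes. Over the 188 genes the peaks per gene in the 2 lists had a Spearman rho of 0.417 and a Pearson r of 0.473 on the log2 scale. This is a description across genes, which share gene length and RNA level between the lists and are not independent. RNA levels were not analysed here, so a gene that NONO does not contact cannot be told apart from one with too little RNA to give a peak.

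**Figure D3:**
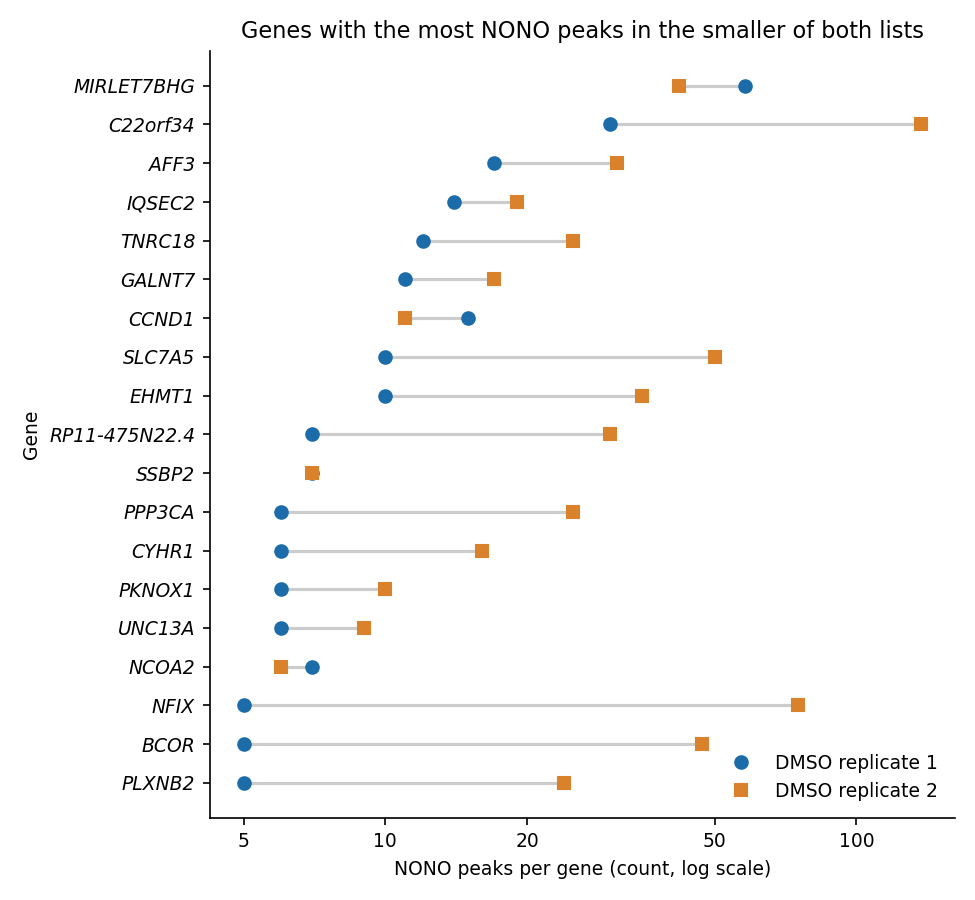
Peaks per gene in replicate 1 (circles) and replicate 2 (squares) for 19 of the 20 genes with the most peaks in whichever list has fewer (horizontal axis, count on a log scale). In 3 of them, MIRLET7BHG, CCND1 and NCOA2, replicate 1 has more peaks than replicate 2 although its list is 5.50 times shorter, and SSBP2 has 7 in each, so that its symbols coincide.

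Among the genes ranked by the number of peaks in whichever list has fewer, 2 noncoding transcripts of chromosome 22 came first. MIRLET7BHG (ENSG00000197182.14, chr22:46053869-46113928, plus strand), the host transcript of 2 let-7 microRNAs, had 58 peaks in replicate 1 and 42 in replicate 2. That is 8.67% of the shorter list and 1.14% of the longer. C22orf34 (ENSG00000188511.12, chr22:49414524-49657542, minus strand), annotated as a long intergenic noncoding RNA, had 30 and 137. Together they held 61.1% of the peaks of replicate 1 in noncoding genes and 43.1% of those of replicate 2, and 29 of the 192 shared sites (15.1%). Chromosome 22 as a whole held 15.5 and 7.88% of peaks and 2.22% of protein-coding genes, and 2.59 and 3.09% of the peaks outside these 2 transcripts.

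Along MIRLET7BHG, which is 60.1 kb long, peaks ran from 7.55 to 54.3 kb after the start in replicate 1 and from 7.43 to 54.1 kb in replicate 2. These counts leave out 1 peak of replicate 1 and 3 of replicate 2 that the authors annotated jointly to MIRLET7BHG and RP6-109B7.3, with a shared site at the very start of the transcript (chr22:46053915-46053993, plus strand). The fullest stretch of 2 kb was the same in both, beginning at 16 kb, and held 14 of 58 peaks (24.1%) and 23 of 42 (54.8%). It contained 7 shared sites over 1426 nt (chr22:46070255-46071680), the last of which is the MIRLET7BHG sequence shown above. In C22orf34, which is 243.0 kb long, peaks ran from 1.05 to 40.5 kb in replicate 1 and from 0.93 to 92.6 kb in replicate 2, and the rest of the gene had none in either list. Its shared sites included a stretch of 7 over 1758 nt (chr22:49647643-49649400) and one of 6 over 1863 nt.

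**Figure D4:**
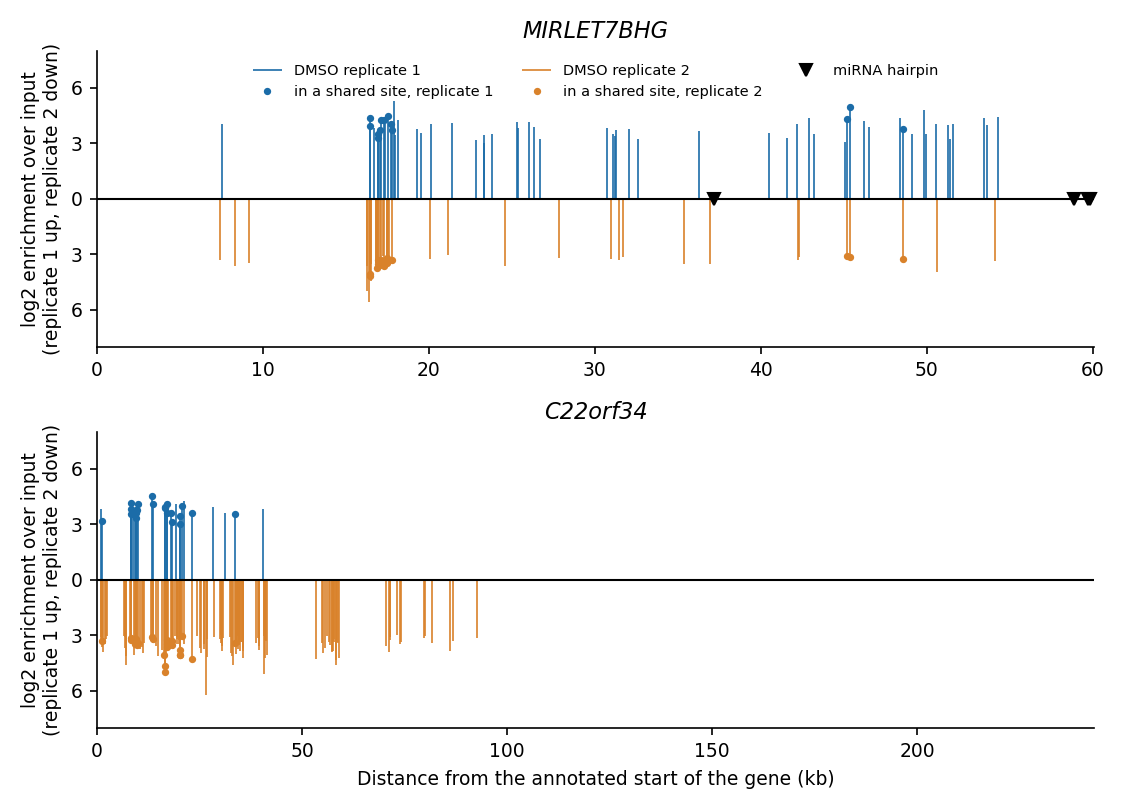
Peaks along MIRLET7BHG and C22orf34 (horizontal axis, kb from the annotated start; vertical axis, deposited log2 enrichment, replicate 1 upward and replicate 2 downward; dots mark peaks in shared sites, triangles miRNA hairpins). The peaks annotated to MIRLET7BHG alone crowd after 16 kb in both replicates and stop before the let-7 hairpins at its 3′ end, and those of C22orf34 lie in the first 92.6 kb.

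No peak of either list fell on a miRNA hairpin of MIRLET7BHG. The hairpin of let-7a-3 begins 58.9 kb and that of let-7b 59.8 kb after the start. The nearest peak to the former was 4517 nt away in replicate 1 and 4748 nt in replicate 2, and to the latter 5454 and 5685 nt. Of 1560 hairpins in the RefSeq table, 37 lie inside 28 genes with a peak in both lists. Peaks overlapped 1 hairpin in replicate 1 and 4 in replicate 2, none in both. The only one in replicate 1 was MIR5690 (log2 enrichment 4.29), and those in replicate 2 were MIR3176 (2 peaks, 4.01 and 3.22), MIR149 (3.77), MIR4651 (3.35) and MIR4479 (3.26). The mature sequences below set the let-7 pair of the most-bound host, whose hairpins had no peak, beside the miRNA of the only overlapped hairpin in replicate 1 and that of the hairpin with 2 peaks in replicate 2. Capitals mark the seed, bases 2 to 8, and the sequences are from RefSeq (GRCh38.p14).
hsa-let-7a-5p: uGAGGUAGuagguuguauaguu
hsa-let-7b-5p: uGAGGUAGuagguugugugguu
hsa-miR-5690: uCAGCUACuaccucuauuagg
hsa-miR-3176: aCUGGCCUgggacuaccgg

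The 2 let-7 miRNAs have the same seed, and the other two have seeds of their own. The peaks on MIR5690 and MIR3176 overlapped 31 nt, and 59 and 31 nt, of the hairpins. DLEU2, the host of miR-15a and miR-16-1 and a noncoding gene with peaks in both lists, had 3 peaks in replicate 1, 14 in replicate 2 and 2 shared sites. The list of miRNA hosts and miRNA genes had 97 names. Besides host genes, every name beginning with MIR that had a peak was put on it, so its counts are partly set by this rule. Of the 97, 5 had a peak in replicate 1, 11 in replicate 2 and 3 names in both (3.09%). For that reason this share cannot be set against the 0.812% of all coding genes, and 2 of those 3 names are MIRLET7BHG. Of the 8 intergenic peaks of replicate 2, 7 lie in an exon of AC020916.1 in GENCODE 29, between 2994 and 5949 nt from the hairpin of MIR23A, with log2 enrichments of 3.2 to 3.95.

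RP11-475N22.4 is the other noncoding gene among the 20, with 7 peaks in replicate 1 and 30 in replicate 2 over 13.1 kb (chr3:128489212-128502348, plus strand). GENCODE 29 names it GATA2-AS1, as it runs antisense to the gene of the transcription factor GATA2. It had 4 shared sites, and its strongest peaks had log2 enrichments of 5.02 and 5.42. Of the 34 listed nuclear long noncoding RNAs, 4 had a peak in replicate 1, 7 in replicate 2 and 3 in both (8.82%). These 3 were MIRLET7BHG, C22orf34 and DLEU2, also named above for their peaks or as miRNA hosts. The list was drawn up with earlier results of these data known, and it names MIRLET7BHG and C22orf34, the genes ranked first above. Its share therefore cannot be set against the 0.812% with a peak in both lists, which is moreover a share of coding genes. NEAT1, the scaffold RNA of paraspeckles, had no peak in either list, and MALAT1, an abundant nuclear RNA, had 1 in replicate 1 and none in replicate 2.

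Among the gene lists, chromatin regulators had the highest share of members with a peak in both replicates. Of 100 listed, 19 had a peak in replicate 1, 38 in replicate 2 and 18 in both (18.0% against the 0.812% of all coding genes). This list, like the other lists here, was drawn up with earlier results of these data known, so the count describes it and supports nothing further. EHMT1, a histone H3 lysine 9 methyltransferase, had 10 and 35 peaks with 4 shared sites. BCOR, a corepressor of BCL6, had 5 and 47 peaks with 5 shared sites, all in the first intron of the longest transcript. GSE1 showed how far the counts could part, with 2 peaks in replicate 1 and 85 in replicate 2. It had no shared site, but its nearest peaks of the 2 lists were 25 nt apart. CTBP1, a corepressor, had 2 and 35 with 1 shared site.

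Of 98 listed transcription factors of development and growth, 10 had a peak in replicate 1, 25 in replicate 2 and 9 in both (9.18%). Over all coding genes the share in both was 0.812%, and this count too only describes the list. AFF3, a nuclear factor of the AF4 family linked to transcription elongation, had 17 and 31 peaks, all of them intronic. They lay 46.7 to 266 kb after the start in replicate 1 and 43.4 to 352 kb in replicate 2, none in the first intron, and 3 sites were shared. NFIX had 5 and 75 peaks and 4 shared sites. CUX1, a homeobox factor, had 5 and 22 peaks and 2 shared sites, and ZFHX3 had 4 and 13 and 1 shared site. E2F3, an activator of genes for DNA replication, had 3 and 5 peaks and 2 shared sites, one of which is printed above.

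In the set for prostate lineage and hormone response, 6 of 38 listed genes had a peak in replicate 1, 9 in replicate 2 and 6 in both (15.8%). The share of all coding genes in both was 0.812%. As this set was also drawn up with earlier results known, its count is a description only. NCOA2 had 7 and 6 peaks within 1.41 kb of its start and 2 shared sites. PMEPA1, an androgen-responsive inhibitor of TGF-beta signalling, had 4 and 57 with 1 shared site, and GRHL2, an epithelial transcription factor, 1 and 9 with 1 shared site. SPDEF, an ETS factor of luminal epithelium, had 1 and 7 and no shared site. As a check of the cell type, the markers of prostate epithelium KLK2, KLK3, FOXA1, HOXB13, KRT8, KRT18, EPCAM and CDH1 had no peak in either list. None of 14 markers of blood, stromal, endothelial, basal and other cells had a peak. A marker without a peak says nothing of its expression in these lists.

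The genes of NONO and its partners SFPQ and PSPC1 had no peak in either list. Of 45 listed genes of paraspeckle proteins, 3 had a peak in replicate 1, 12 in replicate 2 and 3 in both (6.67%). These were DAZAP1 with 2 and 15 peaks, HNRNPF with 2 and 8, and MATR3 with 2 and 5, which encode RNA-binding proteins of the nucleus. HNRNPF had 2 shared sites and MATR3 had 1, in coding sequence. Of 81 listed genes of splicing and RNA processing, 9 had a peak in replicate 1, 15 in replicate 2 and 7 in both (8.64%). ADARB1, an RNA-editing enzyme, had 2 and 12 peaks and 2 shared sites. LARP1, which binds the 5′ ends of mRNAs for the translation machinery, had 3 and 7 peaks and 1 shared site. SRRM4, a splicing factor of neurons and of neuroendocrine prostate cancer, had 6 and 3 peaks and no shared site. No gene of 17 snoRNA hosts, 82 ribosomal proteins or 37 genes of the mitochondrial genome had a peak in either list. Of all 19951 protein-coding genes, only 200 had a peak in replicate 1, 700 in replicate 2 and 0.812% in both. Lists of this size can hold none at such shares, so no avoidance is read from these absences.

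A few genes stood for the remaining lists. CCND1, which encodes cyclin D1 (chr11:69641087-69654474, plus strand), is short at 13.4 kb and had 15 and 11 peaks, all intronic and none in the first intron, with 3 shared sites. It was 1 of 3 genes with peaks in both lists among 54 of the cell cycle and DNA repair (5.56%, beside 0.812% of all coding genes). SLC7A5, which encodes an amino acid transporter of large neutral amino acids, had 10 peaks in replicate 1 and 50 in replicate 2 and 5 shared sites. It was the only one of 445 listed transporter genes with a peak in both lists (0.225%). The 10 peaks of replicate 1 lay between 20.8 and 25 kb after the start, and 4 of the shared sites fell within 2559 nt. Of 597 zinc-finger genes of the ZNF and ZBTB families, 4 had a peak in both (0.670%), and of 60 genes of the cytoskeleton and adhesion, 1 did (1.67%). The shares of these last 3 lists were near or below that of all coding genes or rested on a single gene.

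Other genes of the 20 differed in how far their peaks ran from the start. GALNT7, an enzyme of O-glycosylation, had 11 and 17 peaks with medians 0.913 and 1.31 kb after the start, and its 5 shared sites lay within 862 nt, but its last peaks were at 29 and 36.4 kb. SSBP2, a partner of the LDB1 complex, had 7 and 7 peaks, all between 0.97 and 1.9 kb. PKNOX1, a homeobox factor of the TALE class, had 6 and 10 peaks within 1.21 kb of the start, with 3 shared sites in 422 nt. UNC13A, a priming factor of synaptic vesicles, had 6 and 9 peaks with medians of 2.07 and 1.43 kb. TNRC18 had 12 and 25 peaks that ran up to 18.1 and 30.3 kb, with 5 of its 6 shared sites in 1030 nt. IQSEC2, an exchange factor for ARF proteins, had 14 and 19 peaks up to 64.6 and 64.5 kb after the start, and 1 shared site. PPP3CA, the catalytic subunit of calcineurin, had 6 and 25 peaks up to 71.5 and 176 kb and 2 shared sites. PLXNB2, a receptor for semaphorins, had 5 and 24 peaks up to 14.3 and 14.7 kb and 1 shared site. CYHR1 had 6 and 16 peaks up to 10.9 and 11.2 kb and was the only one of the 20 without a shared site.

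Some genes had peaks in 1 list only. The 5 with the most peaks in replicate 2 and none in replicate 1 were C7orf50 (54), BAHCC1 (51), SKI (39), KDM4B (36) and PLEC (31). SKI encodes an inhibitor of TGF-beta signalling, KDM4B a demethylase of histone H3 lysine 9, and PLEC the cytoskeletal linker plectin. Scaled to the length of the list of replicate 1, the same shares would be 9.82, 9.28, 7.09, 6.55 and 5.64 peaks. The genes were picked because replicate 1 had none, so this contrast follows in part from the choice. In the other direction NSD2, a methyltransferase of histone H3 lysine 36, had 6 peaks in replicate 1 within 0.196 to 0.616 kb of its start and none in replicate 2, and LARP4B had 4. The 4 peaks of replicate 1 in SPAG1 lay in 29 nt with the same log2 enrichment of 3.65, the 3 in CDK5R2 in 35 nt, and the 3 in RP4-561L24.3 in 42 nt. Each of these 3 spans is shorter than the median peak of the list.

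Shared sites made up 192 of the 4065 sites formed when overlapping peaks of both lists were joined (4.72%). They took in 222 peaks of replicate 1 (33.2%, 29.7 to 36.8) and 252 of replicate 2 (6.85%, 6.08 to 7.71). The overlap was 64 nt at the median, in sites of 103 nt. In 177 sites (92.2%) every peak was intronic, and 12 sites had no intronic peak. Of the classes in replicate 1, noncoding introns more than 500 nt from an exon were shared for 40.4% of peaks. Deep coding-gene introns gave 36.9% and 5′ UTRs 13.0%. MIRLET7BHG and C22orf34 held most of the shared peaks of this noncoding class in both lists, so its share is largely theirs. In replicate 2 the same classes gave 15.4 and 5.98%, and deep coding-gene introns 4.53%. No peak in a 3′ UTR or on a miRNA was shared. The sites fell in 100 genes, 61 of which had 1 site and 17 had 3 or more. The other 88 genes with a peak in both lists had none, and there the nearest peaks of the lists were 291.5 nt apart at the median (interquartile range 73 to 1242.5 nt), with 56 genes at 500 nt or less. Of the 447 peaks of replicate 1 outside shared sites, 371 (83.0%) lay in a gene with a peak of replicate 2, and 292 lay within 1000 nt of one.

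Whether a peak of replicate 2 was shared followed its −log10 p and not its enrichment. With the list split by −log10 p into 4 groups of equal size, from lowest to highest, 0.109, 0.435, 2.72 and 24.1% of the peaks of replicate 2 were in shared sites. Split in the same way by log2 enrichment the shares were 6.96, 8.49, 5.44 and 6.52%. The median −log10 p was 14.9 for shared peaks and 5.33 for the others, while the median log2 enrichments were 3.52 and 3.59. Of the 20 peaks of replicate 2 with the highest −log10 p, 17 were shared. In replicate 1 neither measure ordered the peaks so: the 4 groups by −log10 p gave 35.7, 29.3, 37.1 and 30.5%. The −log10 p rises with the number of reads as well as with enrichment, and read numbers are not in the lists.

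At the shared sites the log2 enrichment of one list told nearly nothing of that of the other, with a Pearson r of 0.078 and a Spearman rho of 0.023 (n = 192 sites, description only). Without the strongest site r was −0.044. The −log10 p values of the 2 lists had a Spearman rho of 0.478. Sites share their gene, RNA level and mappability between the lists, and all values lie above the deposited minimum of 3, which narrows their range. In 11 sites the strongest peaks of both lists reached a log2 enrichment of 4.

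**Figure D5:**
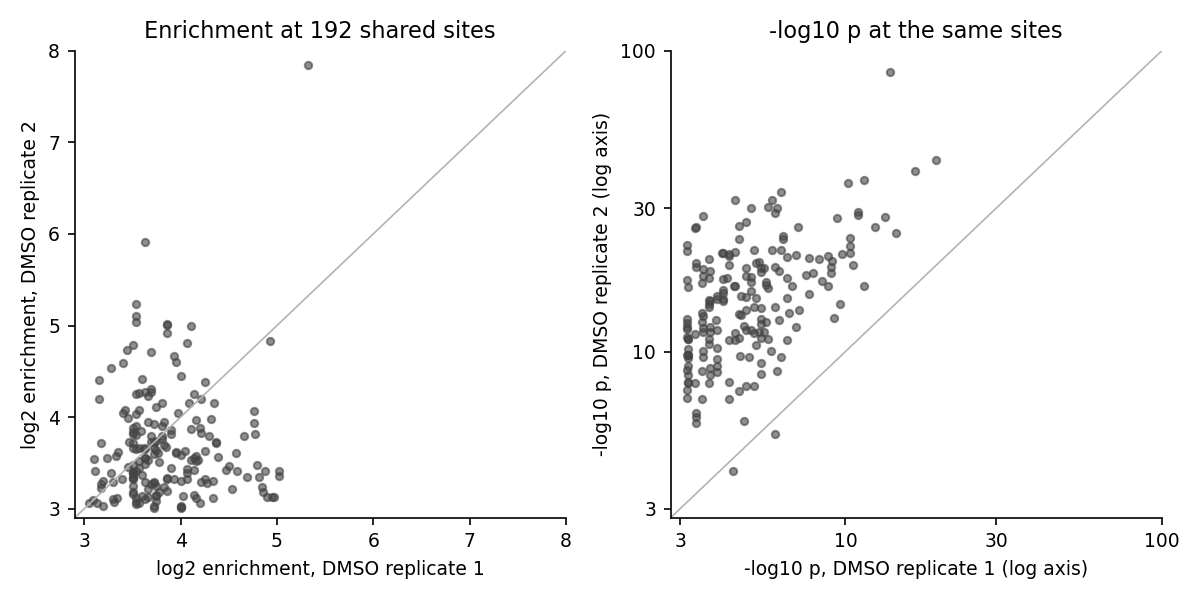
Values of the strongest peak of each list at the 192 shared sites: deposited log2 enrichment (left) and −log10 p (right, log axes), replicate 1 on the horizontal axis and replicate 2 on the vertical one, with lines of equality. The enrichments form a cloud (Spearman rho 0.023) with 1 site far above the rest, and the −log10 p values rise together (rho 0.478).

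The strongest shared site lay in an intron of PTPRN2 (chr7:158361011-158361102, minus strand), the gene of a phosphatase-like protein of secretory granules, 227 kb after the start. Its log2 enrichment was 5.32 in replicate 1 and 7.85 in replicate 2, the highest of that list, with −log10 p of 13.8 and 84.7. EHMT1 followed (chr9:137716312-137716418, plus strand) with 4.93 and 4.83, then CEP170B (chr14:104875294-104875363, plus strand) with 4.26 and 4.39 and SSBP2 (chr5:81750364-81750558, minus strand) with 4.21 and 4.20. MIRLET7BHG came next (chr22:46070255-46070342, plus strand) with 4.35 and 4.15, and then BCOR (chrX:40092179-40092296, minus strand) with 4.13 and 4.25. The next were E2F3 (chr6:20403196-20403302, plus strand) with 4.11 and 4.99 and MAML3, a coactivator of Notch (chr4:140152311-140152383, minus strand), with 4.09 and 4.16. QSER1 (chr11:32893747-32893917, plus strand) had 4.07 and 4.81, and DOCK1, an activator of RAC (chr10:126905988-126906049, plus strand), 4.76 and 4.07. All 10 were intronic, and in 5 of them, those in SSBP2, E2F3, MAML3, QSER1 and DOCK1, the site lay within 2 kb of the gene start.

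The strongest peak of replicate 1 was not shared. It lay in PPP3CA (chr4:101345999-101346125, minus strand) with a −log10 p of 32.0 and a log2 enrichment of 5.53, while another PPP3CA peak, with 16.6 and 3.85, overlapped the third strongest peak of replicate 2. The highest log2 enrichment of replicate 1, 5.69, was in AMD1, an enzyme of polyamine synthesis (chr6:110875995-110876056, plus strand), and was not shared either.

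The 12 shared sites with no intronic peak were 6 in 5′ UTRs, 4 in coding sequence and 2 in noncoding exons. Those in 5′ UTRs were in USP22 (3.69 and 4.72), ADARB1 (3.62 and 3.66), SBNO2 (3.54 and 5.24), RHEB (3.34 and 3.12), YWHAZ (3.28 and 3.39) and LZTS2 (4.20 and 3.06). Those in coding sequence were in DRD4, a dopamine receptor (4.37 and 3.73), MATR3 (3.33 and 3.58), CAPN15 (3.54 and 3.11) and ALPK3 (3.16 and 4.20). The noncoding exons were those of DLEU2 (3.35 and 3.61) and RP13-25N22.1 (3.51 and 3.33). The values are log2 enrichments in replicates 1 and 2. Of the 12 sites, 11 lay within 3.23 kb of the start of their gene, and the one in CAPN15 lay 12.7 kb after it.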

How the data were processed

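NONO immunoprecipitates and their inputs from 2 DMSO replicates of 22Rv1 cells were used through 2 deposited peak lists, 1 per immunoprecipitation against its own input. Replicates were grouped by the sample titles. The tools named are cutadapt 1.9 and STAR 2.4.0i, per the submitters' processing notes. An seCLIP pipeline processed the reads, per the labels' protocols. The peak caller is not given in the sources used here. Per peak, the authors deposited a −log10 p and a log2 enrichment over input, which serve here only to describe, rank or filter peaks within a list. The build is GRCh38: 5122 of 5148 transcripts named in the lists (99.5%) had the same coordinates in GENCODE 29, and 830 of 830 single gene names had an identifier there.

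Python 3.11.15 with pandas 2.3.3 and scipy 1.17.1 computed overlaps, positions and shares, with 95% Wilson intervals, and was tested on simulated peaks. No test between groups was made, as 1 group was described. No read counts were given, so the depth is unknown and the number of peaks sets the precision. Peaks of 2 or more genes (1.20 and 1.66% of the lists) kept the joint name. Named are the 20 genes with the most peaks in whichever list has fewer, the 10 shared sites with the highest log2 enrichment in the weaker list, the 5 genes per list with the most peaks and none in the other, up to 5 members per gene list, up to 12 shared sites outside introns, and NONO, SFPQ, PSPC1, NEAT1 and MALAT1. XPO1, AMD1, GSE1 and other genes at the extremes were named after their values were seen. The members, lists and alternatives were chosen with earlier results of these data known. Alternatives were stricter limits, lists of equal length, other overlaps and distances, and leaving out each replicate. Some of the genes these rules name are not reported here.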

Additional observations from a re-analysis of the deposited data

How the results depend on the processing

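Of 61 alternatives, 47 stayed within the spread between replicates or, for counts, within 1.5 times. Those that leave out a replicate are among the 47 by construction, because each of 2 values lies within their SD of the mean. They say nothing of how stable a result is. A log2 enrichment of at least 4 left 196 and 755 peaks, 60 genes with a peak in both lists and 9 shared sites, and lowered the share of peaks with another within 200 nt from 53.8 to 36.7% (means of both lists). A −log10 p of at least 5 left 287 and 2101 peaks, 90 genes and 86 shared sites. These limits remove peaks by construction. At least 2 peaks in each list left 84 genes. With replicate 2 reduced to the length of replicate 1 by −log10 p, 108 genes and 156 shared sites were found, 27.4 and 30.2% of peaks overlapped, and the mean share of intronic peaks in intron 1 rose from 67.5 to 73.4%. A distance of 1000 nt raised the share with a neighbour to 71.9%. With 50 nt added on each side, the median GC of peaks in annotated exons fell from 75.6 to 69.5%. Overlap on either strand gave 192 sites, as on the same strand. Leaving out a replicate leaves the other list: the intronic share was 87.4 to 91.2%, the share within 500 nt of an exon 22.6 to 35.4%, the 5′ UTR share 5.0 to 8.07%, the noncoding intron share 10.5 to 20.0%, the median position 0.086 to 0.216 and the intron 1 share 63.4 to 71.6%. No paired analysis was possible because only 1 group was described. The unknown depth and the unequal lists limit every count of genes and sites, and an intron sequence could not be read for most peaks.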
